A study of Mus musculus with 6 samples.

Results

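The microRNAs (miRNAs) miR-15a, miR-15b, miR-16, miR-195, miR-497, miR-322 and miR-503 form a family that shares most of its target-recognition sequence, and 13 of the 750 miRNA assays of a PCR panel measured them. The members were all assays named miR-15a, miR-15b, miR-16, miR-195, miR-497, miR-322, miR-424 or miR-503, whatever their species prefix and strand. The samples were whole prefrontal cortex of 6 untreated male mice aged 5 months, 3 of the control strain C57BL/6J, labelled wild type, and 3 labelled BTBR T+ Itpr3tf/J. The labels also give C57BL/6J as the strain background of the BTBR samples, although BTBR is an inbred strain of its own, much studied for autism-like behaviour. Each sample was 1 mouse. An assay returns a cycle threshold, the number of PCR cycles its signal needs to pass a set level. A later threshold means less RNA, and 1 cycle was taken as a 2-fold difference. A threshold of 40 stands for undetermined, and no level is read from it. In assay names hsa and mmu give the species of the design, and # marks the strand of a hairpin taken as the less abundant.

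A miRNA binds messenger RNAs mainly through its seed, bases 2 to 8 from the 5′ end, and lowers their stability and translation. Members of this family repress cyclins, cyclin-dependent kinases and the survival gene Bcl2, and they are known as brakes on the cell cycle and as promoters of cell death. Members with 1 seed are thought to share most targets, while the bases after the seed differ and allow an assay to tell them apart. The 2 arms of a hairpin give a strand each, called 5p and 3p, and the family seed lies on the 5p strand.

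The mature 5p strands of the mouse genes are shown because the comparison of members rests on their common seed, which is in capitals. They were taken from RefSeq (build GRCm38.p6) and are written 5′ to 3′.
miR-15a-5p: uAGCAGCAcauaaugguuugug
miR-15b-5p: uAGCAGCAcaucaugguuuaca
miR-16-5p: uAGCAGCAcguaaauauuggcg
miR-195a-5p: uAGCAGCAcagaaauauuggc
miR-497a-5p: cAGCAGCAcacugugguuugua
miR-322-5p: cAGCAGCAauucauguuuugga
miR-503-5p: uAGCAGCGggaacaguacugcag
The seed AGCAGCA was common to 6 of these 7 strands, and miR-503-5p had AGCAGCG. Of 1679 mouse mature names in the table, 10 held AGCAGCA (0.596%), and the other 4 were miR-195b, miR-6342, miR-6353 and miR-6419. Over the whole strand the closest of the 7 were miR-16-5p and miR-195a-5p, with the same base at 19 of 21 positions, and miR-15a-5p and miR-15b-5p, with 18 of 22. After base 8 these pairs shared 11 of 13 and 10 of 14 bases, and miR-15a-5p and miR-497a-5p also shared 10 of 14. The least alike pair with 1 seed, measured over 22 positions, was miR-16-5p and miR-497a-5p, with 11. Whether an assay also reads a close relative was not tested.

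The genes lie in 4 pairs of neighbouring hairpins. Mir15a and Mir16-1 stand 54 bases apart within Dleu2 on chromosome 14 (miR-15a-5p at chr14:61632075-61632096, minus strand). Mir15b and Mir16-2 stand 66 bases apart within Smc4, a condensin gene, on chromosome 3 (miR-15b-5p at chr3:69009775-69009796, plus strand). Both Mir16 copies give the same miR-16-5p, so 1 assay reads the sum of both loci. Mir497 and Mir195a stand 241 bases apart on chromosome 11 (miR-195a-5p at chr11:70235062-70235082, plus strand). Mir322 and Mir503 stand 200 bases apart within C430049B03Rik on chromosome X (miR-322-5p at chrX:53054306-53054327, minus strand).

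The strand of 9 assays followed from their names, and their mature sequences were all in the table. The assay mmu-miR-16# could read the 3p strand of either copy. For mmu-miR-322 and mmu-miR-322# the name does not settle the strand, since it moved between arms in earlier releases of the miRNA catalogue. No mouse miR-424 was in the table, and in mouse that name is an earlier one for a product of the Mir322 hairpin. The 3p strands of the X-linked pair carry other seeds, here in capitals.
miR-322-3p: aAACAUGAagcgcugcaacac
miR-503-3p: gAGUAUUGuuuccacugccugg

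The panel as a whole differed between strains in how much was detected, taking raw thresholds from 10 to under 40 as detected: 289 to 305 of 750 assays in C57BL/6J and 347 to 404 in BTBR. BTBR replicate 3 correlated more with C57BL/6J replicate 2 (Pearson r = 0.966 over 189 assays) than with BTBR replicates 1 and 2 (0.938 and 0.918), so the results below are also given without it where they move. This choice rests on the same data, so results without that mouse describe how they move and are not separate support. Of the neuronal marker assays hsa-miR-128a, hsa-miR-9# and mmu-miR-124a were detected in all 6 samples, while hsa-miR-9 was undetermined in all C57BL/6J samples and in BTBR replicate 3, and hsa-miR-124# in all BTBR samples but no C57BL/6J sample. Levels were compared on 2 scales. The authors' scale is their quantile-normalized threshold with the sign turned and 40 taken as missing. The global mean scale is the raw threshold centred on the mean of the 237 assays detected in all 6 samples, with the sign turned. The median log2 change of all tested assays, BTBR minus C57BL/6J, was -1.13 on the authors' scale (231 assays) and -0.40 on the global mean scale (270 assays), and changes are also given relative to these medians.

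The family was detected in both strains, but few members gave a signal throughout. Detected member assays numbered 9, 9 and 7 in the C57BL/6J samples and 7, 10 and 11 in the BTBR samples. The difference of 1 assay was within the spread (exact permutation test, two-sided, p = 0.6), while the panel's difference of 71.3 assays reached the smallest p that 3 against 3 allows, 0.1. In all 6 samples 5 of the 13 members were detected (31.6% of the panel was): hsa-miR-15a, hsa-miR-15b, hsa-miR-16, mmu-miR-497 and mmu-miR-503#. The assay mmu-miR-503, for the strand with the variant seed, was undetermined in all 6, and 38.4% of the panel's assays were detected in no sample. The remaining 7 members were detected in some samples, and 2 of them, mmu-miR-424 and mmu-miR-16#, in 2 BTBR and no C57BL/6J samples (10.9% of the panel, and 1.47% showed the reverse, which 0 members did).

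**Figure D1:**
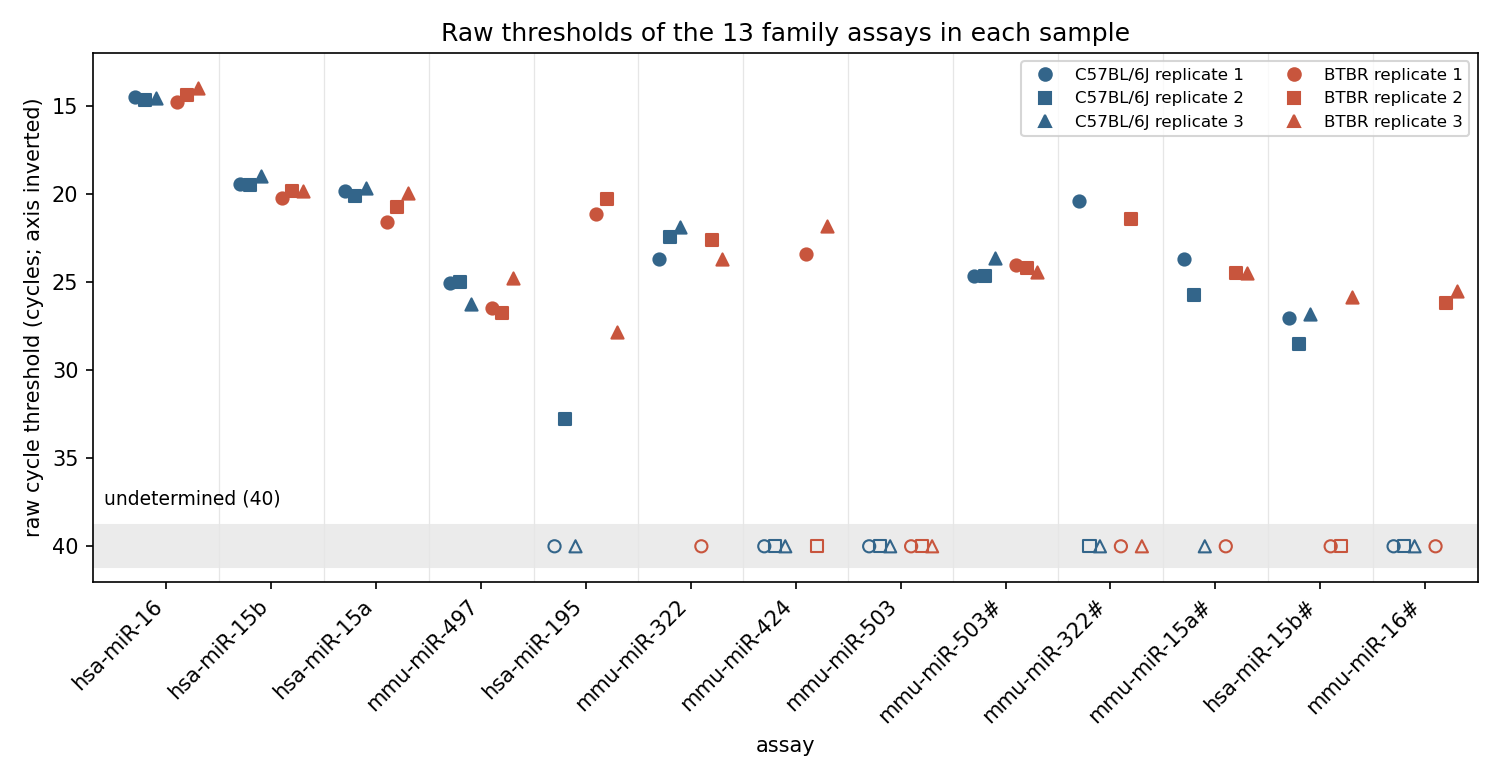
Raw cycle threshold (vertical axis, cycles, inverted so that more RNA is higher) of the 13 family assays in each of the 6 samples. Colour gives the strain, marker shape the replicate, and open markers in the grey band are undetermined values of 40. The 6 thresholds of miR-16, from 13.99 to 14.75 cycles, lie close together, while 8 assays have at least 1 undetermined sample.

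Of the 5p strands from the Dleu2 and Smc4 loci, miR-15a and miR-15b fell in BTBR on the authors' scale and miR-16 did not pass. The level of miR-16, the most widely studied member, was close in both strains, with raw thresholds of 14.50, 14.68 and 14.58 cycles in C57BL/6J and 14.75, 14.40 and 13.99 in BTBR. The strains overlapped. Its change was 0.21 on the authors' scale (standard error 0.32 and adjusted p = 0.612 in limma) and -0.19 on the global mean scale (standard error 0.44 and adjusted p = 0.76 in limma). Their 95% intervals ran from -0.57 to 1.00 and from -1.26 to 0.88. Relative to the panel medians miR-16 stood 1.34 higher on the authors' scale, where 196 of 231 assays had a lower change, and 0.21 higher on the global mean scale.

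Its neighbour in Smc4, miR-15b, was lower in BTBR on the authors' values. Its raw thresholds were 19.42, 19.52 and 18.99 cycles in C57BL/6J and 20.23, 19.81 and 19.82 in BTBR. Every BTBR mouse lay above every C57BL/6J mouse, and miR-15b was the 1 member of 7 with 2 or more detected values per strain that did so (18.1% of 270 panel assays did). On the authors' values it went from 18.83 ± 0.234 to 20.56 ± 0.396 cycles (SD, n = 3 each), 3.31-fold less (log2 change -1.73 with standard error 0.33 and adjusted p = 0.0298 in limma). On the global mean scale the change was -1.04 (standard error 0.34 and adjusted p = 0.148 in limma, 95% interval -1.88 to -0.20). Relative to the panel medians it was -0.60 and -0.64. The authors' deposited table gives a ratio of 0.302 with an adjusted p-value of 0.0389.

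The other close relative, miR-15a, best known from the chromosomal deletion that removes it in chronic lymphocytic leukaemia, was also lower in BTBR on the authors' values. Its raw thresholds were 19.82, 20.11 and 19.64 cycles in C57BL/6J and 21.58, 20.74 and 19.94 in BTBR. BTBR replicates 1 and 2 lay above all C57BL/6J samples, and replicate 3 lay among them. On the authors' values it went from 19.49 ± 0.275 to 21.62 ± 0.799 cycles (SD, n = 3 each), 4.37-fold less (log2 change -2.13 with standard error 0.47 and adjusted p = 0.0301 in limma). On the global mean scale the change was -1.29 (standard error 0.56 and adjusted p = 0.194 in limma, 95% interval -2.65 to 0.07). Without BTBR replicate 3 the global mean changes were -1.83 for miR-15a (limma adjusted p = 0.0364) and -1.24 for miR-15b (0.0491), and in that fit 57 of 258 assays passed, against 0 of 270 with all samples. That mouse was singled out by its likeness to C57BL/6J in these same data, so these p-values are not separate support. The authors' deposited table gives miR-15a a ratio of 0.229 and an adjusted p-value of 0.11.

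Because the whole panel was shifted, the members with 1 seed were also compared with each other inside each sample, where any scaling common to the sample drops out. The assays for miR-15a, miR-15b, miR-497 and miR-16 had raw values in all 6 samples and gave 6 pairs. The raw threshold of miR-15a exceeded that of miR-16 by 5.32, 5.43 and 5.07 cycles in the C57BL/6J samples and by 6.83, 6.33 and 5.95 in the BTBR samples. The strains did not overlap, and the gap was 1.10 cycles wider in BTBR, a 2.14-fold difference. The raw threshold of miR-15b exceeded that of miR-16 by 4.92, 4.84 and 4.41 cycles in C57BL/6J and by 5.48, 5.41 and 5.83 in BTBR. Here too the strains did not overlap, BTBR replicate 3 included, and the gap was 0.85 cycles wider in BTBR, a 1.80-fold difference. Both reached p = 0.1, the smallest that 3 against 3 allows (exact permutation test, two-sided), or 0.3 adjusted over the 6 pairs, so neither passed. Leaving out each mouse in turn kept the gap between 0.87 and 1.31 cycles for miR-15a and between 0.69 and 0.95 for miR-15b. On the authors' normalized values the same gaps were 2.34 and 1.94 cycles wider in BTBR.

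This widening against miR-16 was common in the panel. Of the other 236 assays detected in all 6 samples, 26.7% had a gap to miR-16 that was larger in BTBR without overlap and 8.9% had a smaller one. Over all 27966 pairs of assays detected throughout 31.0% did not overlap, against 2 of the 6 family pairs. The gap between miR-15a and miR-15b overlapped between strains, at a mean of 0.55 cycles (SD 0.135) in C57BL/6J against 0.80 (SD 0.627) in BTBR (3 samples each, exact permutation p = 0.6, 0.72 adjusted). It was 1.35, 0.92 and 0.12 cycles in the BTBR samples, the lowest being replicate 3. The gap of miR-497 to miR-16 was 0.77 cycles wider in BTBR but overlapped (exact permutation p = 0.2, 0.4 adjusted). The gaps of miR-15a and miR-15b to miR-497 differed by 0.32 and 0.07 cycles, both with overlap (exact permutation p = 0.5 and 1, or 0.72 and 1 adjusted). Without BTBR replicate 3, 4 of the 6 pairs did not overlap. The share over all pairs was not computed without that mouse, and fewer samples overlap less readily.

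**Figure D2:**
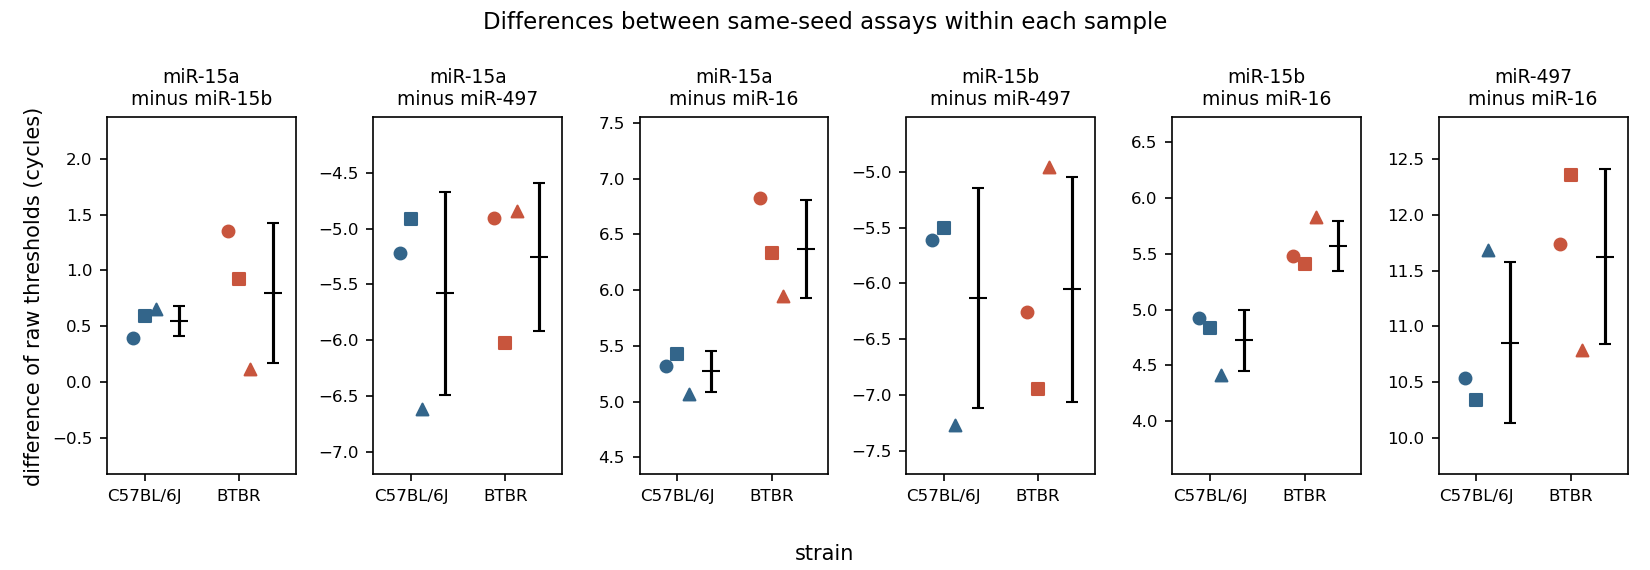
Difference between the raw thresholds of 2 assays in the same sample (vertical axes, cycles, each spanning the same length) for the 6 pairs of members with 1 seed. Circles, squares and triangles are replicates 1, 2 and 3 of each strain, and black marks give the mean and SD of the 3 samples. The gaps of miR-15a and of miR-15b to miR-16 are wider in all 3 BTBR samples than in any C57BL/6J sample, by 1.10 and 0.85 cycles on average.

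The neighbours miR-497 and miR-195, from 1 stretch of chromosome 11, gave unlike readings. For miR-497 the raw thresholds were 25.04, 25.02 and 26.26 cycles in C57BL/6J and 26.49, 26.76 and 24.78 in BTBR. BTBR replicates 1 and 2 were the latest of the 6 and BTBR replicate 3 the earliest. The change did not pass on either scale, at -2.12 on the authors' scale (standard error 0.90 and adjusted p = 0.12 in limma) and -0.96 on the global mean scale (standard error 0.85 and adjusted p = 0.46 in limma). The latter was -1.71 without BTBR replicate 3 and -0.39 without BTBR replicate 2, and passed in neither. In the authors' table the reading of BTBR replicate 2 stands at 40 and was left out of that fit. With such late readings put back the change was -4.58 (standard error 2.24 and adjusted p = 0.157 in limma).

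For miR-195, which differs from miR-16 at few bases, C57BL/6J replicates 1 and 3 were undetermined and replicate 2 read 32.78 cycles. The BTBR samples read 21.11, 20.28 and 27.83 cycles. All 3 BTBR samples were thus earlier than the single C57BL/6J reading, and BTBR replicate 3 was the latest of them. BTBR replicate 3 read at least 5 cycles later than both other BTBR samples in 13 of the 298 assays detected in all BTBR samples (4.36%), and miR-195 was the 1 member among them. With 1 detected C57BL/6J value the assay could not be tested, and it is not among the 306 assays of the authors' table. In the same samples the raw thresholds of miR-16 spanned less than 1 cycle.

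The X-linked hairpins were read by 4 assays, and mmu-miR-424 is given with them. For mmu-miR-322 the raw thresholds were 23.71, 22.44 and 21.90 cycles in C57BL/6J and 22.64 and 23.68 in BTBR replicates 2 and 3, with BTBR replicate 1 undetermined. The raw values overlapped. On the authors' scale the assay was 4.75-fold less in BTBR (log2 change -2.25 with standard error 0.60 and adjusted p = 0.0423 in limma, n = 3 and 2 samples), and -0.94 on the global mean scale (standard error 0.49 and adjusted p = 0.283 in limma). With 40 kept as a value the change was -7.53 (standard error 4.79 and adjusted p = 0.27 in limma), which matches the ratio of 0.00541 in the authors' deposited table. The adjusted p-value given there for mmu-miR-322 is 0.424. With late readings put back, its change kept the same size at an adjusted p of 0.0578 in limma. The assay mmu-miR-424 bears an earlier name of a product of that hairpin, but its target could not be settled here. It was undetermined in all C57BL/6J samples and in BTBR replicate 2, and read 23.42 and 21.82 cycles in BTBR replicates 1 and 3. BTBR replicate 1, undetermined for mmu-miR-322, was thus detected for mmu-miR-424, and BTBR replicate 2 the reverse. The assay mmu-miR-322# read 20.41 cycles in C57BL/6J replicate 1 and 21.42 in BTBR replicate 2, and was undetermined in the other 4 samples. These 3 assays never gave a signal all together in 1 sample.

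From the Mir503 hairpin the 3p strand was steady in the raw values. The assay mmu-miR-503# read 24.64, 24.68 and 23.65 cycles in C57BL/6J and 24.06, 24.22 and 24.45 in BTBR, and the BTBR samples lay inside the C57BL/6J range. The raw means were 24.33 ± 0.582 and 24.24 ± 0.194 cycles (SD, n = 3 each). On the authors' values they became 23.46 ± 0.599 and 25.19 ± 0.606 cycles, 3.32-fold less in BTBR (log2 change -1.73 with standard error 0.47 and adjusted p = 0.0366 in limma). In the authors' deposited table the assay has a ratio of 0.301 with an adjusted p-value of 0.096. On the global mean scale the change was -0.31 (standard error 0.36 and adjusted p = 0.586 in limma, 95% interval -1.20 to 0.58), 0.09 above the panel median. The strains were thus apart on the authors' values and overlapping in the raw ones, where the means differed by -0.08 cycles.

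The other # strands were detected irregularly. The assay mmu-miR-15a#, the 3p strand beside miR-15a, read 23.71 and 25.75 cycles in C57BL/6J replicates 1 and 2 and 24.50 and 24.47 in BTBR replicates 2 and 3. Its change was -1.86 on the authors' scale (standard error 0.93 and adjusted p = 0.187 in limma) and -0.39 on the global mean scale (standard error 0.99 and adjusted p = 0.789 in limma). The assay hsa-miR-15b# read 27.05, 28.50 and 26.83 cycles in C57BL/6J, and in BTBR it was detected in replicate 3 alone, at 25.84. That 1 BTBR value was the earliest of the 4. With 1 detected BTBR value the assay could not be tested, so the lower level of miR-15b has no tested counterpart on its other strand. With 40 entering the means, hsa-miR-15b# has in the authors' deposited table a ratio of 0.00175 with an adjusted p-value of 0.297. The assay mmu-miR-16# read 26.18 and 25.49 cycles in BTBR replicates 2 and 3 and was undetermined elsewhere.

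Over the family, 4 of 7 tested assays fell on the authors' scale and 0 rose, while 35.5% of the 231 panel assays fell and 1.3% rose (36.8% either way). The 4 were miR-15a, miR-15b, mmu-miR-322 and mmu-miR-503#, and miR-16, miR-497 and mmu-miR-15a# did not pass. Of the 4, miR-15b alone had an adjusted p-value under 0.05 in the authors' deposited table, as 48 of its 306 assays did. On the authors' scale the strains did not overlap in 6 of the 7, all lower in BTBR, as in 54.5% of the panel. The change was below 0 in 6 of 7 members and in 82.3% of the panel. The median change of the 7 was -1.86 beside -1.13 for the panel. On the global mean scale 0 of 7 passed, as did 0.0% of 270 panel assays in limma. At an unadjusted p under 0.05 there was 1 member, miR-15b, and 71 panel assays. All 7 changes were below 0 there (61.1% of the panel's were), with a median of -0.94 beside -0.40. For miR-16 that sign turned with other scalings, up to 0.49 with quantiles of detected values. The strains did not overlap for 2 of the 7, miR-15b and mmu-miR-322 (23.7% of the panel was lower without overlap).

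The 4 calls depended on single mice. None held without BTBR replicate 1, BTBR replicate 2, C57BL/6J replicate 2 or C57BL/6J replicate 3, where 0, 8, 3 and 0 assays of the whole panel passed in limma. Without C57BL/6J replicate 1 the passing members were miR-15a, miR-15b and mmu-miR-322 (64 assays of the panel). Without BTBR replicate 3 they were miR-15a, miR-15b and mmu-miR-503# (101 assays), and mmu-miR-322 had too few values. The sizes moved little: without each of the 6 mice in turn miR-15a stayed between -2.59 and -1.86 and miR-15b between -1.91 and -1.52. Centred on sample medians, the authors' values gave 0 calls among the members, with -0.95 for miR-15a (limma adjusted p = 0.143) and -0.55 for miR-15b (0.2). In that fit 2 of 231 panel assays passed.

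**Figure D3:**
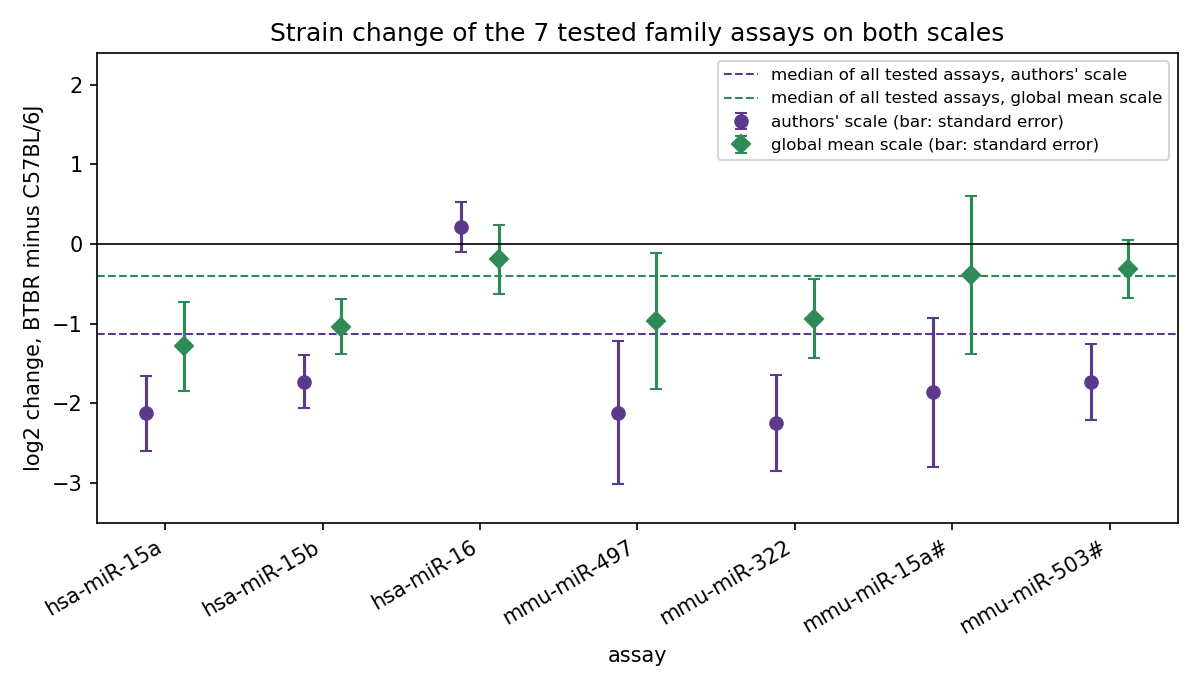
Log2 change of the 7 tested family assays, BTBR minus C57BL/6J (vertical axis), on the authors' scale (circles) and the global mean scale (diamonds), with standard errors. Dashed lines are the medians of all tested assays on each scale, -1.13 and -0.40. All assays but miR-16 lie below the median on the authors' scale, and miR-15a, miR-15b, mmu-miR-497 and mmu-miR-322 lie below it on both scales.

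**Figure D4:**
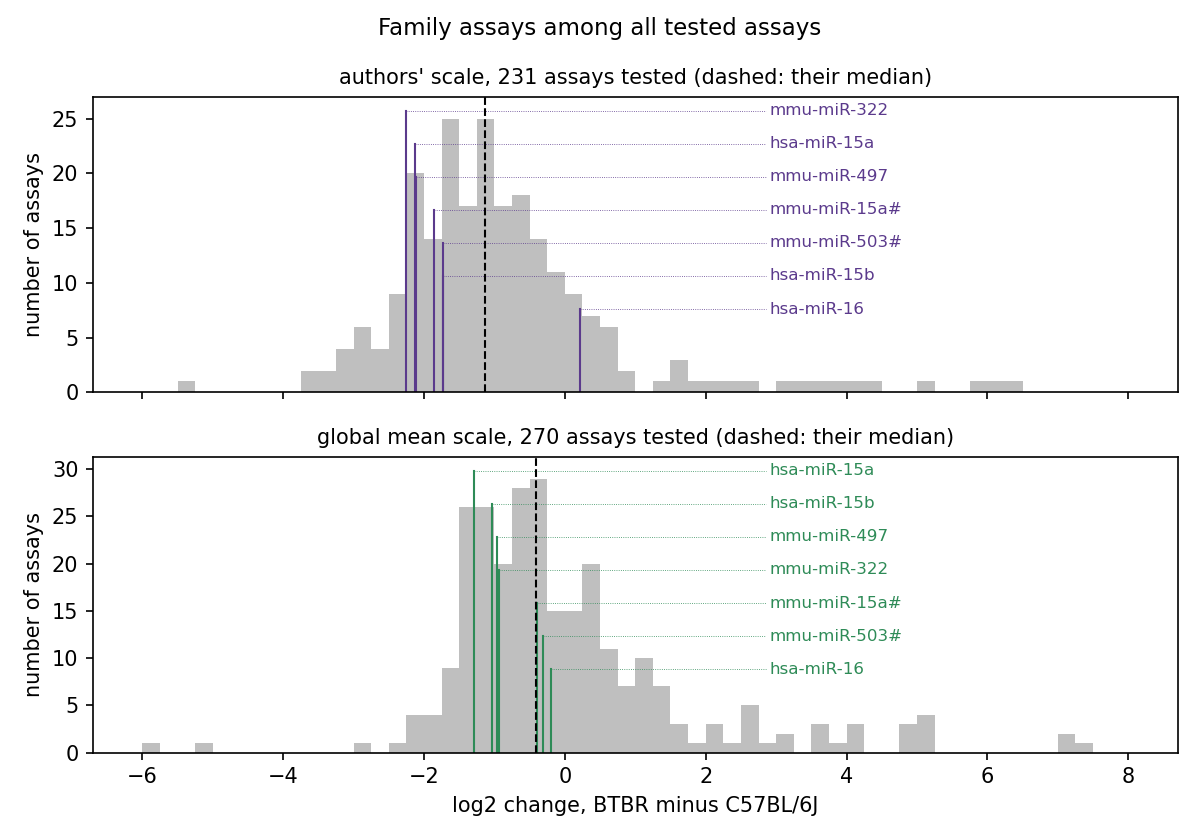
Number of assays (vertical axis) by log2 change, BTBR minus C57BL/6J (horizontal axis), for all assays tested on the authors' scale (231, upper) and on the global mean scale (270, lower). Coloured lines mark the 7 family assays, and dashed lines the medians. The family assays lie within the bulk of the distribution, with miR-16 at its right on the authors' scale.

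The miRNAs miR-103 and miR-107 carry the core of the family seed moved by a base and regulate lipid and insulin metabolism.
miR-107-3p: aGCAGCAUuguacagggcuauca
miR-103-3p: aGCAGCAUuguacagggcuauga
The assay hsa-miR-107 read 21.01, 21.42 and 21.55 cycles in C57BL/6J and 22.24, 21.75 and 21.80 in BTBR, without overlap. It fell on the authors' scale (log2 change -2.01 with standard error 0.34 and adjusted p = 0.0265 in limma) and was at -1.004 on the global mean scale (standard error 0.44 and adjusted p = 0.199 in limma). The assay hsa-miR-103 was undetermined in all C57BL/6J samples and read 18.07, 17.24 and 16.57 cycles in BTBR. No assay named miR-646 or miR-1907 was found on the panel.

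The hairpins that follow Mir322 and Mir503 on chromosome X, Mir351, Mir542, Mir450-1, Mir450-2 and Mir450b, are read by 9 assays of the panel. Of these, 8 were undetermined in all samples. The other, hsa-miR-450a, read 26.88 and 27.23 cycles in C57BL/6J replicates 1 and 2 and 27.14 in BTBR replicate 2.

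Among other miRNAs known to restrain the cell cycle (let-7, miR-26, miR-29, miR-34, miR-124, miR-137 and miR-449, both strands), 3 of 16 tested assays fell on the authors' scale and 0 rose (35.5% and 1.3% of the panel). These were rno-miR-29c# (-3.10), mmu-let-7a# (-1.61) and hsa-miR-29b-2# (-1.602), and the last was at 0.12 on the global mean scale. All 3 were # strands, and no tested assay of this list without # passed on the authors' scale. The remaining tested # strand, hsa-miR-26b#, did not pass there (-1.18, adjusted p = 0.18 in limma). The panel's share of # strands that passed was not computed, so no difference between strands is read from this. The median change of the 16 was -0.65, above the panel's -1.13. With global mean centring 0 of 19 passed, with a median of -0.15. A further 9 of the 38 assays on this list were detected in at least 2 BTBR and no C57BL/6J samples, among them hsa-let-7b and hsa-let-7f (10.9% of the panel were). The reverse, which 1.47% of the panel showed, was seen for hsa-miR-124#.

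The miRNAs with raw profiles most like miR-16 on the global mean scale were mmu-miR-106a, hsa-miR-20b and hsa-let-7g. They differed from it by 0.168, 0.183 and 0.199 cycles (root mean square over 6 samples, each assay centred on its own mean), against a median of 0.66 over 232 assays outside the family.

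Red blood cells are rich in miR-16 and miR-15, and markers of blood were read in the same samples. Of 3 assays for miR-451, miR-144 and miR-486, the first read 21.10, 21.18 and 21.43 cycles in C57BL/6J and 20.72, 19.98 and 19.74 in BTBR, earlier in every BTBR mouse. The panel's share of assays earlier in BTBR without overlap was not computed. The change of miR-451 was -0.205 on the authors' scale (standard error 0.33 and adjusted p = 0.64 in limma). On the global mean scale it was 0.69 (standard error 0.47 and adjusted p = 0.357 in limma). The assay hsa-miR-486 was undetermined in all C57BL/6J samples and read 16.66, 16.62 and 15.20 cycles in BTBR, and HSA-MIR-144 was undetermined throughout. Of the panel's assays 10.9% were detected in at least 2 BTBR and no C57BL/6J samples. Endothelial hsa-miR-126 read 17.94, 19.07 and 17.82 cycles in C57BL/6J and 16.56, 16.46 and 18.05 in BTBR. Mural hsa-miR-145 went the other way, with 14.01, 13.87 and 12.66 cycles in C57BL/6J against 16.50 and 15.27 in BTBR replicates 2 and 3, and BTBR replicate 1 undetermined. Of the 2 hsa-miR-143 assays, 1 was undetermined in all C57BL/6J samples and detected in all BTBR samples, and the other changed by -1.38 on the global mean scale without passing. Of the 11 endothelial and mural assays 4 were undetermined in all samples, and 0 of 2 tested passed on the authors' scale. The mean raw threshold of the 2 detected throughout ran from 21.34 to 22.20 cycles in C57BL/6J and from 21.15 to 22.70 in BTBR. Of 7 leukocyte and microglial assays 2 had no threshold from 10 to under 40 in any sample, and 0 of 3 tested passed. Of these 2, hsa-miR-223 (pool B) was undetermined throughout. The other, mmu-miR-155, was undetermined in all C57BL/6J samples and read 6.425, 6.774 and 6.93 cycles in BTBR, under the lower limit of 10. The 1 assay detected throughout ran from 13.29 to 13.78 cycles in C57BL/6J and from 13.52 to 14.71 in BTBR. Of 10 choroid plexus assays 1 was undetermined in all samples and 0 of 2 tested passed. A further 3, hsa-miR-200a and both hsa-miR-200b assays, were detected in at least 2 BTBR and no C57BL/6J samples (10.9% of the panel were). The 2 detected throughout were both strands of miR-204. Their mean ran from 18.82 to 20.02 cycles in C57BL/6J and from 18.63 to 20.43 in BTBR. Of 6 oligodendrocyte assays 1 of 3 tested, hsa-miR-338-3p, fell on the authors' scale (-3.08), and the mean of the 4 detected throughout ran from 24.61 to 25.79 cycles and from 25.45 to 26.52. Of 7 neuronal assays 0 of 4 passed, and the mean of the 3 detected throughout ran from 17.32 to 19.68 cycles and from 16.16 to 17.16. Of these 3, mmu-miR-124a was earlier in BTBR (24.44 to 31.40 cycles against 19.79 to 23.29) and hsa-miR-128a later (13.81 to 13.99 against 14.47 to 14.91), both without overlap, while hsa-miR-9# was later in BTBR by a smaller margin, with overlap. The tested assay hsa-miR-138 read 10.62, 10.76 and 9.60 cycles in C57BL/6J, the last under the limit of 10, and 11.57, 10.91 and 11.05 in BTBR. Its change was -0.0 on the authors' scale and -1.06 on the global mean scale. None of these lists' assays passed on the global mean scale in limma, where 0 of 270 did. The part of blood or other cells in the family's values was not tested. In whole tissue fewer cells of a type and less RNA per cell cannot be told apart.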

How the data were processed

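RNA was column-purified, and 100 ng was reverse transcribed, pre-amplified and run on the OpenArray rodent panel, per the labels' protocols. No source used here names the array of a sample, and if the strains ran on different arrays, array and strain cannot be told apart. The deposited raw table holds cycle thresholds (unit: a score), and the deposited normalized table holds thresholds (a score) that the authors quantile-normalized, per the file headers. Rebuilt from the raw table, the authors' normalized values were matched to 3.33e-09 cycles: values under 10 were set to 40, 340 assays entered the ranking with 40 as a value, and normalized values above 29.19 were set to 40, leaving 306. The authors' deposited comparison table gives a ratio, a log2 value of opposite sign, a test score and p-values.

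Here thresholds were multiplied by -1. Assays with at least 2 detected values per strain were fitted on the whole table with limma 3.58.1 (lmFit, eBayes; R 4.3.3), comparing strains, with Benjamini-Hochberg adjustment over all tested assays (threshold 0.05). Single values were compared with exact permutation tests. On simulated data with 231 assays the test found 14.8% of changes of 1 cycle, 55.8% of 2 and 76.2% of 3 on the authors' scale, and 8.75%, 53.2% and 69.5% with 270 assays on the global mean scale. The simulation drew noise independently for each assay and changed 60 assays in random directions. It had no shift of the whole panel, so these shares may not hold for the measured data. Named assays were all members, fixed lists of relatives, neighbours, cell-cycle and cell-type miRNAs, and the 3 profiles nearest to miR-16; mmu-miR-322 was not measured throughout and got none. The members and lists were chosen with earlier results of these data known. A threshold has no counting depth, and the precision rests on single PCRs in 3 mice of each strain. Alternatives changed the scaling, the handling of undetermined and late readings, the block and the mice included.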

Additional observations from a re-analysis of the deposited data

How the results depend on the processing

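On the authors' scale the 4 member calls became 0 of 7 with values centred on sample medians, where 2 of 231 panel assays passed. With 40 kept as a value 2 of 8 members passed, beside 96 of 306 panel assays. With 1 mouse left out 0 to 3 members passed, beside 0 to 101 panel assays. On the global mean scale the 0 calls ranged from 0 to 2 with 1 mouse left out, the 2 without BTBR replicate 3 (57 of 258 panel assays). They stayed at 0 under the other scalings and filters run, where at most 1 panel assay passed. The change of miR-16 on that scale turned from -0.19 to 0.023 on the cells detected in the normalized table, 0.016 with thresholds of 30 and above as missing, and 0.49 with quantiles of detected values. With 1 mouse left out it ranged from -0.522 to 0.036 and was above 0 without BTBR replicate 2 or C57BL/6J replicate 1. Centred on U6 rRNA, the changes were larger (miR-15a -2.09, miR-15b -1.84, miR-16 -0.99), as was the panel median (-1.20). Pairs without overlap numbered 2 on raw and 3 on the authors' values, and 2 to 4 with 1 mouse left out. The share over all pairs was computed for the raw values of all 6 samples alone (31.0%). The difference in detected member assays was 1.33 with thresholds from 10 to under 30.

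Replicate numbers name separate animals. Deviations of same-numbered samples correlated at 0.083, 0.421 and -0.001, and those of unlike-numbered samples at -0.377 to 0.256. Whether same-numbered samples were processed together was not tested. With the replicate block 3 members passed on the authors' scale and 49 of 226 panel assays (85 of 231 without it), mmu-miR-503# being at an adjusted p of 0.05003, and 0 passed on the global mean scale. The cause of these shifts was not tested.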
